A study of Plutella xylostella with 12 samples.

Results

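A group of 69 genes of the diamondback moth, Plutella xylostella, have a single exon and stood far higher in male than in female larvae at 25 °C. They were chosen by their CPM (a gene's read count scaled to the total gene reads of its library). The rule asked for an identifier that starts with LOC, 1 exon, a mean of at least 5 CPM in the 3 male 25 °C libraries, a mean at least 16 times the female 25 °C mean plus 0.05 CPM, and every male 25 °C library above every female one. It found 69 of the 2502 single-exon genes with such identifiers, in tables that list 19364 features. The 25 °C sex difference of these genes is therefore a description and was not tested.

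RNA came from whole bodies of mid-fourth-instar larvae of a laboratory population kept on cabbage, with 8 larvae pooled in each library. All larvae grew at 25 °C until early in the third instar. The 4 groups of 3 libraries are males moved to 10 °C, females moved to 10 °C, males kept at 25 °C and females kept at 25 °C. Replicates are numbered 1, 2 and 3, except for 25 °C females, which are 1, 2 and 4. The sources used here do not say how larvae were sexed, and libraries are named below by their labelled sex. A fall in such a pool can come from fewer cells of a type or from less RNA per cell, and these cannot be told apart.

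In moths, male germ cells enter meiosis while the animal is still a larva, and the testes grow during the last larval stage. A single-exon gene has no intron to splice. Some such genes are retrocopies, made when a spliced mRNA is copied back into the genome, and in flies and mammals many retrocopies are transcribed in the testis. Neither the deposited tables nor the gene table used for names gives a product for any of the 69 genes. Their functions are therefore not described, and whether any of them is a retrocopy or a testis gene was not tested. None of 10 symbols of testis and germ-line genes that were looked for (such as vasa and nanos) was found among the identifiers, so testis content was not measured directly.

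Libraries held between 10183278 and 30106219 total gene reads. Where a gene had 0 reads, counting error alone allows a level of up to 3 reads, worth between 0.0996 and 0.295 CPM depending on the library.

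Since the rule asked for 1 exon, the gene models of all 69 have an exon length equal to the gene length, and 0 of them had reads that cross an exon junction. Their exons were from 385 to 45719 bp long, with a median of 1125 bp. Only 5 genes exceeded 2000 bp. The longest, LOC105387626, was an exception in size, and the next longest had 5534 bp. Other single-exon genes with at least 5 CPM in the male 25 °C libraries had a median of 1490 bp, and the multi-exon genes that pass the same rule had 1189 bp of exon.

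At 10 °C the sex labels did not sort these genes. The median member stood at 51.5%, 72.7% and 0% of its male 25 °C mean in male 10 °C replicates 1, 2 and 3. In female 10 °C replicates 1, 2 and 3 it stood at 0%, 18.4% and 61.5%. Male 10 °C replicate 3 thus lay with the 25 °C females, and female 10 °C replicate 3 lay with male 10 °C replicates 1 and 2. Of the 69 genes, 68 were lower in male 10 °C replicate 3 than in both other male 10 °C libraries, and 68 were higher in female 10 °C replicate 3 than in female 10 °C replicate 1. The exception in both counts was LOC105380857. With CPM scaled by trimmed means (TMM), the medians were 32.4%, 58.0% and 0% in males and 0%, 8.36% and 33.3% in females, which kept the order within each sex. All comparisons of sex at 10 °C rest on these labels. Whether pools were swapped or held larvae of both sexes was not tested, and either would change what each value by sex at 10 °C, and the count of genes called there, stands for.

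**Figure D1:**
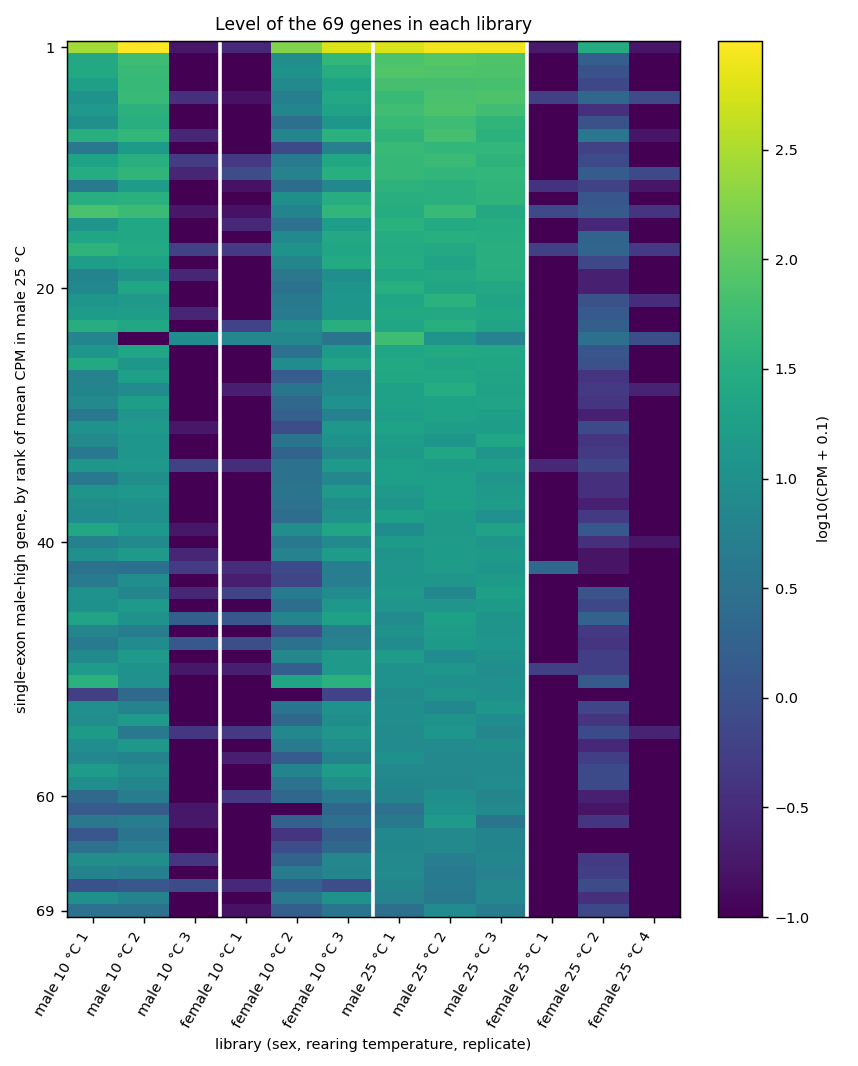
Level of each of the 69 genes (rows, by rank of mean CPM in male 25 °C libraries) in the 12 libraries (columns), as log10(CPM + 0.1). Male 10 °C replicate 3 and female 10 °C replicate 1 are dark like the 25 °C females, while female 10 °C replicate 3 resembles male 10 °C replicates 1 and 2.

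Multi-exon genes chosen by the same rule, 323 in number, gave nearly the same picture per library. Their medians were 57.4%, 69.8% and 0.374% in male 10 °C replicates 1, 2 and 3, and 0%, 21.4% and 67.1% in female 10 °C replicates 1, 2 and 3. PxSP1, a storage protein gene whose lowest 25 °C female value lay above all 25 °C male values, was set beside the single-exon genes. At 10 °C it had 2943, 1237 and 3971 CPM in male 10 °C replicates 1, 2 and 3, and 6228, 7338 and 1148 CPM in female 10 °C replicates 1, 2 and 3. Female 10 °C replicate 3 had the lowest PxSP1 level of the 6 libraries, and female 10 °C replicate 2, where the single-exon genes stood at 18.4%, had the highest. The 25 °C levels of PxSP1 ran from 551 to 883 CPM in males and from 2378 to 10358 CPM in females. Tryp_SPc1, a gut serine protease gene, had 9232, 3363 and 1666 CPM in male 10 °C replicates 1, 2 and 3, and 2130, 1251 and 3357 CPM in female 10 °C replicates 1, 2 and 3. Its 3 highest libraries at 10 °C were the ones in which the single-exon genes were highest. Its 25 °C levels ran from 1909 to 4500 CPM in males and from 3761 to 5471 CPM in females. Gss, the other gene taken as a gut marker, was lowest in male 10 °C replicate 2. It had 781.5, 24.5 and 79.3 CPM in male 10 °C replicates 1, 2 and 3, and 35.4, 29.5 and 62.0 CPM in female ones. The 25 °C levels of Gss ran from 4.73 to 12.8 CPM in males. They were 289, 477 and 6.29 CPM in female 25 °C replicates 1, 2 and 4, so it also differed between libraries at 25 °C. The part of gut tissue in the levels of the single-exon genes was not tested.

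**Figure D2:**
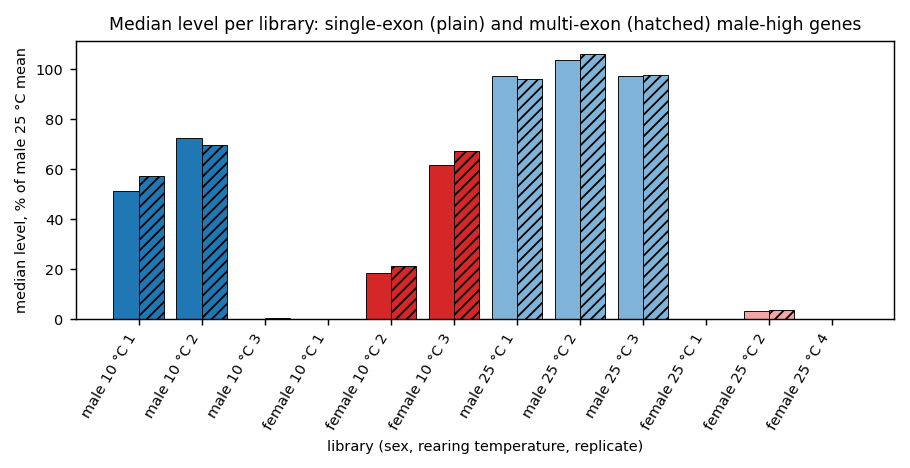
Median level of the 69 single-exon genes (plain bars) and the 323 multi-exon genes chosen by the same rule (hatched bars) in each library, in percent of each gene's mean over the 3 male 25 °C libraries. The plain and hatched bars are close in every library, with medians of 61.5% and 67.1% in female 10 °C replicate 3 and 0% and 0.374% in male 10 °C replicate 3.

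Most of these genes had a steady level in the male libraries at 25 °C. In 62 of 69 genes the highest of the 3 male 25 °C libraries was less than 2 times the lowest. Those libraries chose the members, and the same count was not made over other genes. A steady level is therefore not shown to be particular to the members. Summed over all 69, the level was 2113, 2466 and 2327 CPM in male 25 °C replicates 1, 2 and 3. In female 25 °C replicates 1, 2 and 4 it was 4.71, 75.8 and 3.70 CPM. Female 25 °C replicate 2 stood apart from the other females: 65 of the 69 genes had reads there, against 8 in replicate 1 and 12 in replicate 4, and 63 were highest there among the females. The median member reached 3.02% of its male mean in that library, and the multi-exon genes reached 3.72%. What put these reads in the library was not tested.

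A single gene made up much of the sum. LOC105391290 (scaffold NW_011952336, 393820 to 394419, minus strand, 600 bp) had 275, 994 and 0.0842 CPM in male 10 °C replicates 1, 2 and 3, and 0.178, 172 and 598 CPM in female 10 °C replicates 1, 2 and 3. The ranges of the sexes overlapped there. At 25 °C it had 600, 845 and 843 CPM in male replicates 1, 2 and 3, and 0.0942, 28.7 and 0.0740 CPM in female replicates 1, 2 and 4. Per length it was also the most abundant of the group, at 1185 ± 243 TPM (the authors' values scaled to transcript length, SD, n = 3) in male 25 °C libraries. LOC105391547 and LOC105398802, also among the 6 highest in CPM, had 74.2 ± 9.96 and 73.4 ± 6.24 TPM. LOC105391290 took 23.9% and 47.1% of the summed level in male 10 °C replicates 1 and 2, and 38.5% in female 10 °C replicate 3. Without it, the summed level was 879, 1118 and 16.4 CPM in male 10 °C replicates 1, 2 and 3, and 13.8, 295 and 955 CPM in female 10 °C replicates 1, 2 and 3.

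The next genes by CPM repeated the pattern with smaller values. LOC105398802 (NW_011952011, 2838078 to 2839142, minus strand) had 25.8, 57.4 and 0 CPM in male 10 °C replicates 1, 2 and 3, 0, 9.43 and 44.9 CPM in female 10 °C replicates, 72.9, 87.2 and 78.9 CPM in male 25 °C libraries, and 0, 1.53 and 0 CPM in female 25 °C libraries. LOC105381809 (NW_011952062, 1194136 to 1195434, minus strand) had 17.9, 48.4 and 0 CPM in male 10 °C replicates, 0, 7.56 and 20.5 CPM in female 10 °C replicates, 66.3, 66.3 and 68.7 CPM in male 25 °C libraries, and 0, 0.636 and 0 CPM in female 25 °C libraries. Both were highest in male 10 °C replicate 2 among the cold libraries, at 11.8% and 11.3% of their male 25 °C means in female 10 °C replicate 2, and at 0 in 1 library of each sex. LOC105393311, LOC105394373 and LOC105391547, the others among the first 6, averaged 79.1 ± 2.66, 64.9 ± 14.3 and 64.2 ± 9.18 CPM in male 25 °C libraries (SD, n = 3). They averaged 0.297 ± 0.514, 1.08 ± 0.837 and 0.0848 ± 0.147 CPM in female 25 °C libraries.

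The 6 genes next in level, given in plain CPM, added some differences between members. LOC105388202 (NW_011952211, 587490 to 588209, plus strand) had 10.2, 31.4 and 0 CPM in male 10 °C replicates and 0, 2.85 and 13.0 CPM in female 10 °C replicates, against 51.7, 57.1 and 41.4 CPM in male 25 °C libraries. LOC105394768 (NW_011952585, 89870 to 91800, minus strand) had 21.0, 32.9 and 0.421 CPM in male 10 °C replicates and 0.355, 4.32 and 24.3 CPM in female 10 °C replicates, against 46.6, 52.4 and 38.9 CPM in male 25 °C libraries. Both lay below all 3 of their male 25 °C values in every library at 10 °C. LOC105390133 (NW_011952284, 124436 to 125711, minus strand) came closer, with 29.6, 40.7 and 0.168 CPM in male 10 °C replicates and 0.770, 5.89 and 32.2 CPM in female 10 °C replicates, against 45.6, 43.3 and 43.6 CPM in male 25 °C libraries. LOC105395219 (NW_011952644, 106671 to 107153, plus strand) overlapped its 25 °C values, with 32.9, 43.8 and 0.168 CPM in male 10 °C replicates and 0, 6.48 and 35.1 CPM in female 10 °C replicates, against 39.6, 64.8 and 35.9 CPM in male 25 °C libraries. Its female 25 °C values were 0, 3.63 and 0.0740 CPM. The other 2 of these 6, LOC105385420 and LOC105381657, were among the lowest in share at 10 °C.

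**Figure D3:**
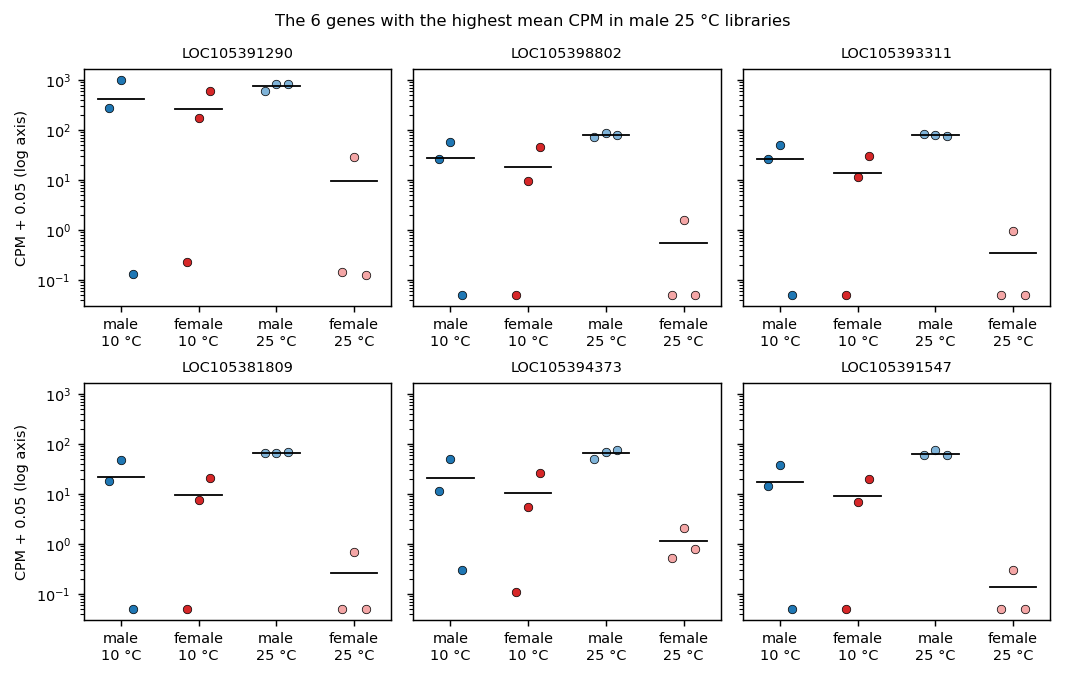
CPM + 0.05 on a log axis for the 6 genes with the highest mean CPM in male 25 °C libraries, with 1 point per library (replicates in numerical order from left to right) and a line at the group mean. At 10 °C the male and female points overlap in all 6 panels, and at 25 °C they are separate, as the rule required.

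The question of the series is whether the response to cold depends on sex, and for these genes the comparison that did not choose them is male against female at 10 °C. No gene passed it. In the edgeR quasi-likelihood fit of all 12 libraries, 0 of the 69 members had a Benjamini-Hochberg adjusted p under 0.05, beside 0 of 15027 tested genes (0%), and all 69 members passed the filter on low counts. At an unadjusted p under 0.05 there were 0 members and 120 genes in all (0.799%). The DESeq2 Wald test also called 0 members and 0 genes, with 231 genes at an unadjusted p under 0.05. In 0 of 69 members was every male 10 °C library above every female one, which held for 97 of all tested genes (0.646%).

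The log2 difference at 10 °C, male minus female, had a median of 1.14 over the members and was positive in 68 of 69, against a median of 0.03 and 7795 positive values among the 15027 genes. The multi-exon genes chosen by the same rule had a median of 1.03, with 321 of 323 positive. The members rose and fell together across libraries, so the number of positive genes does not count independent replicates. The size of the members' lean towards males depended on single libraries, while the median stayed above 0 with any 1 of them left out. Leaving out male 10 °C replicate 2 took the members' median to 0.29, with 53 of 69 positive, and leaving out female 10 °C replicate 1 took it to 0.57, with 61 positive. The median was 1.72 when male 10 °C replicate 3 was left out, and 2.90 when female 10 °C replicate 3 was. LOC105391290 had a log2 difference of 1.25 ± 2.16 (SE, n = 3 each, edgeR adjusted p = 0.999938), and the log2 differences of the other 5 genes among the 6 highest ran from 1.10 ± 1.71 in LOC105398802 to 1.76 ± 1.60 in LOC105381809 with the same adjusted p. Both libraries numbered 3 at 10 °C were doubted because of male-high genes themselves. Leaving them out gave a median of 3.48, with 0 members called. In that edgeR fit, 46 members and 898 of all 15353 tested genes had an unadjusted p under 0.05. Since an outcome like the one tested picked those 2 libraries, that fit is no independent support for a sex difference.

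Among the libraries at 10 °C in which the genes were detected, the members differed widely in level relative to male 25 °C. In male 10 °C replicate 1 the share of the male 25 °C mean ran from 4.63% to 338%, with quartiles at 27.4% and 90.2%. In male 10 °C replicate 2 the quartiles were 58.2% and 92.1%, and in female 10 °C replicate 3 they were 38.5% and 101%. On plain CPM, the number of members above their own male 25 °C mean was 15, 11 and 0 in male 10 °C replicates 1, 2 and 3. It was 0, 1 and 18 in female 10 °C replicates 1, 2 and 3. Of these, 13 were above it in both male replicate 1 and female replicate 3, and 7 were above it in male replicate 2 as well. With TMM scaling, the median shares in male 10 °C replicates 1 and 2 and female 10 °C replicate 3 were 32.4%, 58.0% and 33.3%. The counts of members were not repeated on that scale, where the shares are lower, and they were not made over all genes. They are therefore not shown to be particular to the members. Because the male 25 °C libraries chose the members, no test of cold against 25 °C was made.

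The order of the genes was shared most closely by male 10 °C replicate 1 and female 10 °C replicate 3. Across the 69 genes, Spearman's rho of these shares was 0.93 between those 2 libraries and 0.65 between male 10 °C replicates 1 and 2. It was 0.72 between male 10 °C replicate 2 and female 10 °C replicate 3, and 0.75 between female 10 °C replicates 2 and 3. These values describe genes within libraries, which are not independent replicates, and all shares have the same male 25 °C mean as divisor. On plain CPM the first 2 values were 0.94 and 0.69. Exon length had little relation to the share in male 10 °C replicates 1 and 2 and female 10 °C replicate 3 (rho of 0.07, -0.14 and 0.03). Against the mean CPM in male 25 °C libraries, which is also the divisor of the share, the relation differed between libraries. Here rho was -0.30 and -0.004 in male 10 °C replicates 1 and 2, and -0.38 and -0.26 in female 10 °C replicates 2 and 3.

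**Figure D4:**
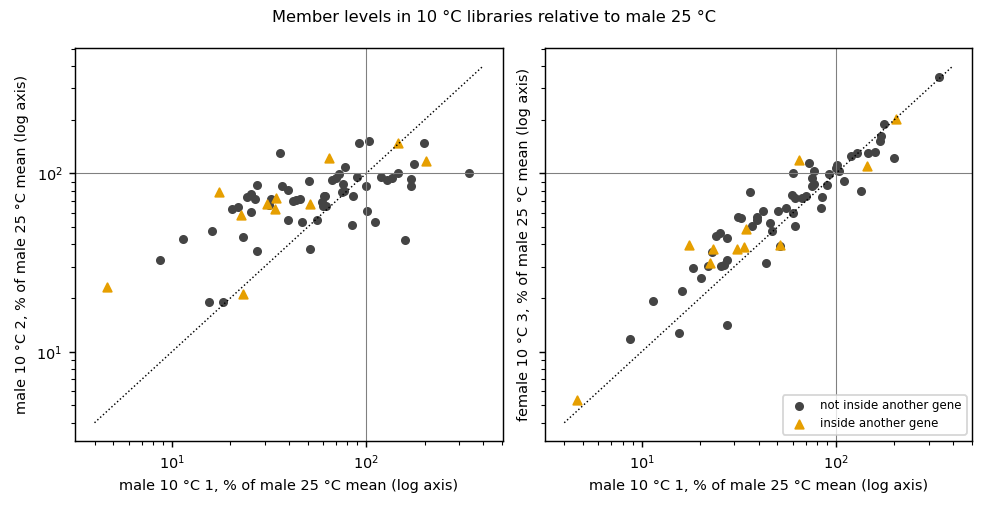
Level of each gene in male 10 °C replicate 2 (left) and in female 10 °C replicate 3 (right) against male 10 °C replicate 1, in percent of the gene's male 25 °C mean on log axes, with triangles for genes inside another gene and a dotted line of equal values. Points lie closer to the line on the right (rho = 0.93) than on the left (rho = 0.65), and LOC105380857, with 0 reads in male 10 °C replicate 2, is missing on the left.

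The lowest shares at 10 °C were those of LOC105391924, LOC105385420 and LOC105381657, taken by the median of the 3 male libraries. LOC105391924 (NW_011952369, 163599 to 164363, plus strand) had 0.465, 2.33 and 0 CPM in male 10 °C replicates, 0, 0 and 0.536 CPM in female 10 °C replicates, and 8.31, 11.8 and 10.0 CPM in male 25 °C libraries. It had 0 reads in all 3 female 25 °C libraries. LOC105385420 had 4.02, 15.1 and 0 CPM in male 10 °C replicates and 0, 0.687 and 5.44 CPM in female 10 °C replicates, against 49.0, 44.3 and 44.8 CPM in male 25 °C libraries. LOC105381657 had 4.35, 16.4 and 0 CPM in male 10 °C replicates and 0.0592, 2.46 and 7.35 CPM in female 10 °C replicates, against 38.9, 34.4 and 41.3 CPM in male 25 °C libraries. For each of these genes, every 10 °C library lay below every male 25 °C library.

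The highest median shares at 10 °C in males were those of LOC105383516, LOC105383175 and LOC105386053. LOC105383516 had 69.7, 52.3 and 0.0842 CPM in male 10 °C replicates and 0.0592, 6.28 and 43.0 CPM in female 10 °C replicates, against 29.4, 50.1 and 25.9 CPM in male 25 °C libraries. LOC105386053 had 15.5, 8.93 and 0 CPM in male 10 °C replicates and 0, 6.28 and 15.5 CPM in female 10 °C replicates, against 7.45, 7.58 and 7.94 CPM in male 25 °C libraries. LOC105387778, named after its values were seen, was the most extreme single case, with 35.2, 10.5 and 0 CPM in male 10 °C replicates and 0, 22.5 and 36.1 CPM in female 10 °C replicates, against 10.8, 10.2 and 10.2 CPM in male 25 °C libraries. On plain CPM, it was above its male 25 °C mean in female 10 °C replicates 2 and 3 and in male 10 °C replicate 1. In male 10 °C replicate 2 it was equal to that mean within the spread of the male 25 °C libraries, on the same scale.

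A few members did not follow the rest. LOC105380857 (NW_011952012, 1121825 to 1125641, minus strand) had 6.81, 0 and 8.67 CPM in male 10 °C replicates and 7.11, 7.17 and 3.52 CPM in female 10 °C replicates. It had 57.1, 11.6 and 5.91 CPM in male 25 °C libraries, and 0, 2.93 and 0.814 CPM in female 25 °C libraries. Only 2.49% of its 1647 reads mapped uniquely, so its reads cannot be placed at this locus with certainty. It supplied 8.67 of the 16.5 CPM that the 69 genes summed to in male 10 °C replicate 3. It was also 1 of the 2 members nearest to the fold limit, at 19.2 times, beside LOC105398590 at 17.6 times. Just outside lay LOC105393001 at 14.7 times and LOC105382688 at 13.8 times. Nearest to the level limit were LOC105386265 (5.39 CPM) and LOC105385957 (5.63 CPM) inside, and LOC105381033 (4.85 CPM) and LOC105387095 (4.71 CPM) outside. LOC105382688 had 161, 94.7 and 5.22 CPM in male 10 °C replicates and 5.33, 48.1 and 119 CPM in female 10 °C replicates, against 54.5, 63.3 and 49.2 CPM in male 25 °C libraries and 3.58, 7.38 and 1.04 CPM in female 25 °C libraries.

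By position the genes were scattered. They lay on 65 scaffolds of the assembly the authors used, with at most 2 on any of them, 33 on the plus strand and 36 on the minus strand. Only 6 of 69 (8.70%) had another member within 50 kb, in 3 pairs. Among other single-exon genes with at least 5 CPM in male 25 °C libraries, 24 of 610 (3.93%) had a member within 50 kb. These shares carry no test, and scaffold ends limit all of them.

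The closest pair was LOC105383309 and LOC105383310 (NW_011952087, 428010 to 429197 and 429463 to 430588), on the same strand with a gap of 265 bp. LOC105383309 had 12.4, 22.3 and 0 CPM in male 10 °C replicates and 0, 2.95 and 15.1 CPM in female 10 °C replicates, and averaged 24.5 ± 1.65 CPM in male 25 °C libraries and 0.360 ± 0.624 CPM in female 25 °C libraries. LOC105383310 had 8.87, 14.2 and 0 CPM in male 10 °C replicates and 0, 2.16 and 9.57 CPM in female 10 °C replicates, and averaged 9.61 ± 1.17 and 0.106 ± 0.184 CPM in male and female 25 °C libraries. All reads of both mapped uniquely. In male 10 °C replicate 2, LOC105383309 stood below each of its male 25 °C values and LOC105383310 above each of its own.

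LOC105391055 and LOC105391054 (NW_011952326, 141476 to 142707 and 143508 to 144997) lay 800 bp apart, head to head on opposite strands, inside the same larger gene. They averaged 13.3 ± 1.58 and 7.16 ± 5.86 CPM in male 25 °C libraries, and 0 and 0.106 ± 0.184 CPM in female 25 °C libraries. The third pair, LOC105383514 and LOC105383516 (NW_011952092, 102093 to 102788 and 104913 to 105687), lay 2124 bp apart and point towards each other. Between them is LOC105383515, a single-exon gene that does not pass the rule, with 6.76 ± 3.04 CPM in male 25 °C libraries and 1.84 ± 1.82 CPM in female 25 °C libraries. In the gene order of a second assembly, ilPluXylo3.1, in which 40 of the 69 identifiers were found, LOC105391055 and LOC105391054 were neighbours. There LOC105383514 and LOC105395219, which lie on different scaffolds in the authors' tables, were separated by 1 gene.

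Neighbours chosen by the same rule, whether of 1 exon or more, were counted next. Of the 69 single-exon genes, 20 (29.0%) had another gene of either male-high kind within 50 kb, against 81 of 610 (13.3%) of the other single-exon genes with at least 5 CPM in male 25 °C libraries, and 226 of all 2502 (9.03%). The multi-exon male-high genes had a share of 27.6% (89 of 323). In 7 of the 69 (10.1%) the nearest LOC gene itself passed the rule, and in 5 of these it was a multi-exon gene. Among these, LOC105398802 lay 757 bp from the multi-exon LOC105398810, which had 113, 164 and 0.0842 CPM in male 10 °C replicates and 0.178, 45.7 and 147 CPM in female 10 °C replicates. LOC105398810 averaged 222 ± 4.72 CPM in male 25 °C libraries and 2.10 ± 3.58 CPM in female 25 °C libraries, so that both genes of the pair were high and low in the same libraries. At 10 °C most of the single-exon genes, and the medians of the multi-exon ones, had this pattern whatever their position. It is therefore not particular to neighbours. Reads that run past the end of a gene model could be shared between such neighbours, and the sources used here do not say whether counting used the strand. The deposited tables class a median of 3.89% of a member's reads as intron reads although the models have no intron, with at least 10% in 16 members and 40.8% at most.

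The same held for other such neighbours at lower levels. LOC105398751 lay 357 bp from the 7-exon LOC105398752, and they averaged 26.8 and 35.4 CPM in male 25 °C libraries. LOC105382747, LOC105387745 and LOC105388769 lay 110, 2750 and 287 bp from LOC105382746, LOC105387747 and LOC105388770. In each of these 4 pairs both genes had under 1 CPM in male 10 °C replicate 3 and in female 10 °C replicate 1, and more than that in male 10 °C replicates 1 and 2 and in female 10 °C replicate 3. In female 10 °C replicate 2 the multi-exon partners had between 0.687 and 8.54 CPM and the single-exon genes between 1.87 and 3.73 CPM. One further couple of members shared a scaffold at a greater distance, LOC105397284 and LOC105397361 on NW_011952026, with 167480 bp and 8 genes between them.

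**Figure D5:**
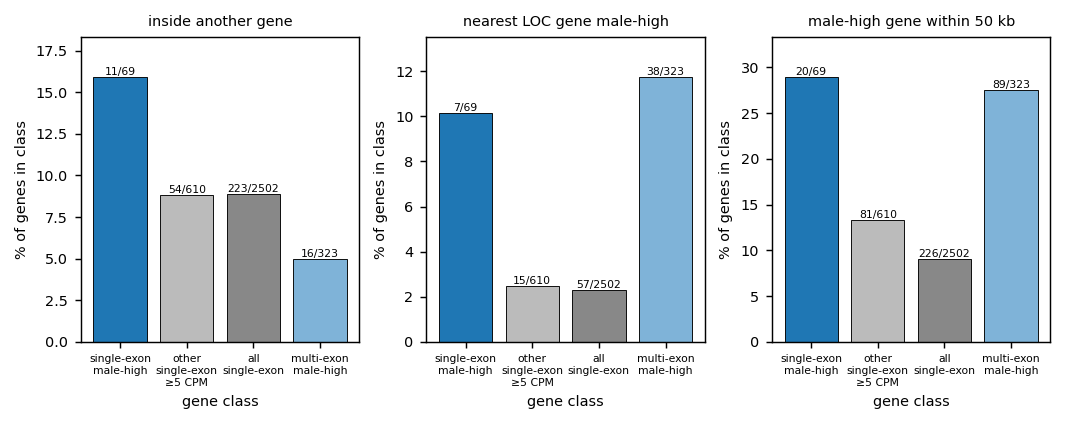
Share of genes in each class that lie inside another gene, whose nearest LOC gene is male-high, and that have a male-high gene within 50 kb, in percent with counts above the bars (male-high means passing the rule, with 1 exon or more). The 69 genes stand at 15.9%, 10.1% and 29.0%, and other single-exon genes with at least 5 CPM in male 25 °C libraries at 8.85%, 2.46% and 13.3%.

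Some of the genes lie within other genes. Of the 69, 11 (15.9%) lay wholly inside the span of a larger gene, against 54 of 610 (8.85%) of the other single-exon genes at that level and 16 of 323 (4.95%) of the multi-exon male-high genes. They include LOC105393311, LOC105394373 and LOC105391547, which are 3 of the 6 highest in CPM. Of the 11, 6 lay on the same strand as the surrounding gene and 5 on the opposite strand. None of the 10 surrounding genes passed the rule, and their male to female ratio at 25 °C ran from 0.133 to 2.23.

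The surrounding genes differed in how their levels compared with the genes inside them. Their male 25 °C mean was above their female 25 °C mean in 4 of 10. LOC105391054 averaged 7.16 CPM in male 25 °C libraries beside 6.23 CPM in its surrounding gene LOC105391056, and LOC105386053 averaged 7.66 CPM beside 6.33 CPM in LOC105386054. LOC105391924 averaged 10.0 CPM there, below the 60.9 CPM of its surrounding gene. LOC105389121 and LOC105398443, named after their values were seen, averaged 11.9 and 12.0 CPM, below 55.4 and 30.6 CPM. LOC105391924 and LOC105389121 lie on the same strand as their surrounding genes. The other inner genes averaged above theirs. The inner genes that were highest in CPM stood further above their surrounding genes. LOC105393311 (NW_011952457, 48489 to 49718, minus strand) lies within the 10-exon gene LOC105393315 on the opposite strand. It had 26.7, 50.1 and 0 CPM in male 10 °C replicates and 0, 11.2 and 30.5 CPM in female 10 °C replicates. LOC105393315 averaged 4.90 ± 2.18 CPM in male 10 °C libraries, 5.98 ± 1.65 CPM in female 10 °C libraries, 0.765 ± 0.790 CPM in male 25 °C libraries and 3.16 ± 2.72 CPM in female 25 °C libraries. LOC105394373 (NW_011952023, 1789228 to 1791880) lies within LOC105394379, a gene of 22 exons on the opposite strand with 3.41 ± 4.14 CPM in male 25 °C libraries and 25.5 ± 14.6 CPM in female 25 °C libraries. The inner gene, at 64.9 ± 14.3 CPM in male and 1.08 ± 0.837 CPM in female 25 °C libraries, thus went the other way in its group means. These 2 surrounding genes have the lowest male to female ratios of the 10.

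Unique mapping followed this nesting. At least 95% of the reads mapped uniquely in 55 of the 69 genes, 2 genes were between 5% and 95%, and 12 were under 5%. Of those 12, 11 were the genes inside another gene, each with 0% unique reads, and the remaining one was LOC105380857. Over all single-exon LOC genes with at least 100 reads, 126 of 134 genes inside another gene (94.0%) were under 5% unique, against 43 of 1104 of the others (3.89%). A low unique share of a nested gene is therefore common in these tables, and whether any of the 11 also has a copy elsewhere was not tested.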

How the data were processed

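Per the file headers, the deposited tables hold whole-number gene counts (total, unique, exon, intron) and the authors' TPM. Libraries came from poly(A) RNA, per the labels' protocols; the sources used here name no aligner, counting tool, genome build or annotation. Reads matching more than 1 gene enter the total gene reads. CPM was total gene reads over the library's sum. The test used edgeR 4.0.16 in R 4.3.3 with TMM scaling, its expression filter (count of 10, total of 15) and a robust quasi-likelihood fit of 4 group means over 12 libraries. The SE is the absolute log2 difference over the square root of F. Simulated counts for male against female at 10 °C over 15027 genes gave calls for 88 of 100 genes at 16-fold and 29 of 100 at 4-fold, with 8 false calls. The changed genes were drawn at random from all genes above a set mean CPM, not from the members. The rate at which members would be called was therefore not measured. DESeq2 1.42.0 served as an alternative.

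Each library is a separate pool of larvae, and p-values measure the spread between pools. No 2 libraries of a group agreed within counting error. The members, lists and tests were chosen with earlier results of these data known. Genes were named by a written rule: the 12 highest in male 25 °C CPM, members within 50 kb of each other, the 3 highest and 3 lowest in median share at male 10 °C, 2 on each side of each threshold, the 2 highest in CPM in female 25 °C libraries, and members with a symbol or a call at 10 °C, of which there were 0. Neighbouring genes and surrounding genes are named with them. A gene table of the assembly ilPluXylo3.1 held 10698 of 18895 identifiers, and no product names, so lists by product were not counted. Positions are those of the deposited tables.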

Additional observations from a re-analysis of the deposited data

How the results depend on the processing

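The counts of 0 genes and 0 members called between the sexes at 10 °C held under each alternative run: DESeq2 size factors, no filter, at least 1 CPM in 3 libraries, unique reads, DESeq2's own test, the 10 °C libraries alone, the replicate number as a block, each library left out, and both 10 °C libraries numbered 3 left out. Only 57 of the 69 members were tested on unique reads, and 68 with the 10 °C libraries alone. The other members could not be called in those 2 runs. The replicate block gave 0 calls, with 98 genes at an unadjusted p under 0.05 in edgeR. Same-numbered 10 °C libraries deviated from their group means in opposite directions (r from -0.74 to -0.40). A swap or mix of pools, which was not tested, would also change these deviations. Whether the numbers pair the libraries therefore cannot be told from them. With 1 library left out, the log2 difference at 10 °C ran from -0.64 to 3.04 in LOC105391290, from -0.24 to 3.27 in LOC105398802, from -0.58 to 3.71 in LOC105394373 and from -0.015 to 3.099 in LOC105391547. In each of these genes the value below 0 came without male 10 °C replicate 2; the cause was not tested.

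The rule found 77 genes on TMM-scaled CPM, 58 on unique reads (57 of them shared with the 69), 72 at 8 times, 57 at 32 times, 88 at 1 CPM and 52 at 10 CPM, and from 64 to 70 with a 25 °C library left out. Members with another within the window numbered 6 at 10 kb and 8 at 200 kb, 4 on unique reads, and from 4 to 8 with a 25 °C library left out. Depth limits what can be said near 0: in male 10 °C replicate 3, 59 of 69 members had at most 3 reads.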

Other observations

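Among genes that were higher in females by the mirrored rule at 25 °C, 1 of 38 had a single exon. The male lists held 69 single-exon and 323 multi-exon genes. Shares of expressed genes, given next for the male direction, were not counted for the female one. In the male direction the rule took 69 of 679 single-exon genes with at least 5 CPM in male 25 °C libraries (10.2%) and 323 of 6862 multi-exon genes (4.71%). The lists in both directions were chosen on the 25 °C libraries, and these shares carry no test.

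Named genes of other tissues also varied between the 10 °C libraries. The arylphorin storage protein gene PxAry1, a product of the fat body, had 39015, 5443 and 7770 CPM in male 10 °C replicates 1, 2 and 3, and 11691, 8138 and 7272 CPM in female 10 °C replicates 1, 2 and 3. Male 10 °C replicate 1 stood alone there. The gene with the symbol actin, itself a single-exon gene, had 5221, 3890 and 14817 CPM in male 10 °C replicates and 10769, 11446 and 11251 CPM in female 10 °C replicates. The 25 °C levels of actin ran from 1166 to 1541 CPM in males. They were 7459, 8421 and 778 CPM in female 25 °C replicates 1, 2 and 4. The part these tissues had in the levels of the single-exon genes was not tested.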
